A study of Homo sapiens with 6 samples.

Results

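The integrated stress response was examined through 10 of the 47470 genes listed in the count data, the transcription factors ATF4, ATF5 and DDIT3 and the effectors ASNS, PSAT1, PHGDH, CHAC1, TRIB3, SESN2 and DDIT4. These genes were chosen by name as genes of this response, and ATF5 was selected on its fall in these same libraries, so that its difference is given as a description with no test. The RNA came from HEK293T, an established human line of embryonic kidney origin with the large T antigen of SV40, either left untreated or exposed for 1 day to the histone deacetylase inhibitor valproic acid (VPA) at 1 mM. There were 3 libraries per group, all from the same line in serum-containing medium, and the comparison of VPA-treated with untreated cells asks how the mRNA of the response changed with the drug. The labels do not say that the libraries of a group came from separate cultures, so the p-values measure only the spread between these libraries, which may be technical. All 10 genes passed the filter on low counts.

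In the integrated stress response, kinases that sense amino acid shortage, heme deficiency, viral RNA or misfolded protein in the endoplasmic reticulum (ER) phosphorylate the translation factor eIF2. General translation then falls, while the mRNAs of ATF4 and ATF5, which carry short upstream open reading frames, are translated more. ATF4 induces genes for amino acid supply, tRNA charging and redox control, and under prolonged stress, with DDIT3, genes of cell death. Because much of the control of ATF4 and ATF5 is on translation, mRNA counts do not measure the activity of the response. In bulk RNA, fewer cells that express a gene and less of its RNA per cell cannot be told apart.

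Counts on genes totalled 18622267 to 18828495 per library. Of the listed genes, 15298 were tested with edgeR's quasi-likelihood test, with a common biological coefficient of variation of 3.83%, so that small differences passed in well-counted genes. The 7 markers of the line (PAX2, LHX1, VIM, KRT8, KRT18, NES and NEFM) were detected in every library, the least counted of them at 28 counts or more. Their levels moved with the drug: 6 of the 7 were higher in VPA-treated cells, from 1.16-fold (KRT18) to 4.78-fold (PAX2), and VIM was lower, and their part in the results was not tested. The 4 markers of blood, liver, fibroblast and endothelial cells summed to 0, 1 and 4 counts in untreated cells and to 48, 53 and 49 in VPA-treated cells. Most of this sum was DCN, a matrix proteoglycan gene of fibroblasts, at 0, 0 and 3 against 40, 47 and 46 counts, and its part in the results was not tested.

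Among the 9 genes other than ATF5, 4 were lower in VPA-treated cells (ATF4, ASNS, SESN2 and PSAT1), 1 was higher (TRIB3) and 4 did not pass the test (DDIT3, CHAC1, PHGDH and DDIT4) at an adjusted p under 0.05. Of all tested genes, 32.9% were higher and 30.0% lower by the same rule. The median log2 fold change (VPA-treated minus untreated) of the 9 was -0.23, with 8 of the 9 under 0, beside a median of 0.0058 over all tested genes. None of the 9 reached the study's second threshold, a log2 fold change of 1 in size, which 12.0% of all tested genes passed as up-regulated and 0.503% as down-regulated. The normalized counts of the groups did not overlap for 6 of the 9, against 65.8% of all tested genes.

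**Figure D1:**
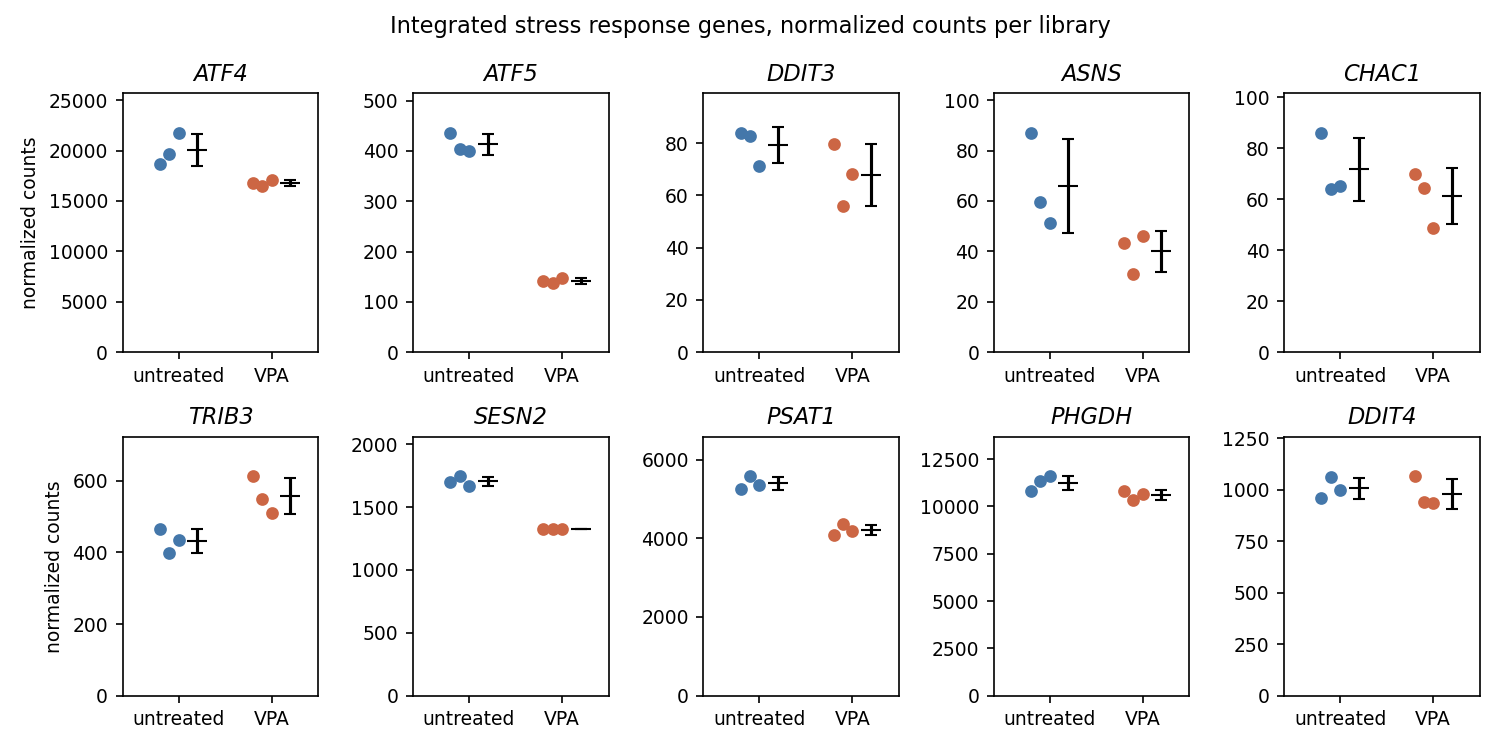
Normalized counts of the 10 genes in each library, on axes of their own, with the untreated and the VPA-treated libraries side by side. The 3 VPA-treated libraries lie below all untreated ones for ATF4, ATF5, ASNS, SESN2, PSAT1 and PHGDH and above them for TRIB3, while they overlap for DDIT3, CHAC1 and DDIT4.

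Promoter sequence was examined because ATF4 binds, with C/EBP partners, to a composite site known as the C/EBP-ATF response element. Its core, TGATGNAA, was searched on both strands of the 250 bases before start sites on GRCh38.p14, in 17 windows for the 10 genes, matched by symbol. Not every RefSeq start was covered, as the outermost of ASNS (chr7:97928441) and of TRIB3 (chr20:380760) had no window. The core was found for 2 of the 10 genes, ASNS and CHAC1, and for 3.89% of the 27305 genes with such a sequence, or 2.34% of the 11739 that were tested. Both windows are shown 5′ to 3′ on the strand of their gene, with the core in capitals, because they are the places where a known ATF4 site can be read beside the counts.
ASNS: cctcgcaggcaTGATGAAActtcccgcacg
CHAC1: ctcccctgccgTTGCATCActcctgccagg
The ASNS window is at chr7:97872458-97872487 on the minus strand, with its core beginning 68 bases before a start site. The CHAC1 window is at chr15:40953251-40953280 on the plus strand, and its core begins 209 bases before the start and reads TGATGCAA on the opposite strand. The cAMP response element TGACGTCA, the palindrome bound by CREB factors and their relatives, was found for 0 of the 10 genes and for 2.03% of all genes. A match is a description of letters, and its absence says only that the letters are not in these windows.

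ATF4, the central transcription factor of the response, lies at chr22:39520559-39522686 on the plus strand. Its normalized counts were 18692, 19690 and 21744 without VPA and 16774, 16523 and 17045 with VPA. Every VPA-treated library was below every untreated one, and the untreated libraries were the more spread. The means were 20042 ± 1556 and 16781 ± 261 (SD, n = 3 each), and the log2 fold change of -0.26 (SE 0.049) passed edgeR's test with an adjusted p of 9.74e-05. By mean normalized count in untreated cells ATF4 stood at percentile 99.5 of the tested genes.

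ATF5, a bZIP factor close to ATF4 that is known for its part in the mitochondrial stress response and in neural progenitors, lies at chr19:49928906-49933935 on the plus strand. Its normalized counts were 436, 403 and 400 in untreated cells and 142, 137 and 148 in VPA-treated cells. The libraries of each group lay close together and the groups were far apart. The means were 413 ± 19.9 and 142 ± 5.82 (SD, n = 3 each). The log2 fold change was -1.54, so that the VPA-treated level was 0.345 of the untreated one. In the order of all 15298 log2 fold changes ATF5 was at position 9 from the most lowered, and at position 2 when the 11065 genes with mean normalized counts of 100 or more were ranked alone. These ranks describe the choice of the gene and support nothing further. The first exons of ATF5 overlap NUP62 and IL4I1 on the opposite strand, and the strand setting of the counting is not given in the sources used here, and NUP62 had a log2 fold change of -0.16 (SE 0.044).

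DDIT3, which encodes CHOP, the factor of prolonged ER stress that promotes cell death, lies at chr12:57516588-57520517 on the minus strand. Its normalized counts were 83.9, 82.7 and 71.4 in untreated cells and 79.5, 55.9 and 68.0 in VPA-treated cells. The groups overlapped, and the log2 fold change of -0.23 (SE 0.15) did not pass, with an adjusted p of 0.189 in edgeR. It was -0.106 without VPA-treated replicate 2 and -0.357 without VPA-treated replicate 1. RefSeq places LOC128125814, listed at 0 in all 6 libraries, over 70.5% of the span of DDIT3, and MARS1, at 6762 to 7855 counts per library, runs into it on the opposite strand, so the counts of DDIT3 are uncertain.

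ASNS encodes asparagine synthetase, which makes asparagine from aspartate and glutamine, and lies at chr7:97851677-97928441 on the minus strand. Its normalized counts were 87.0, 59.7 and 51.4 in untreated cells and 43.1, 30.8 and 46.0 in VPA-treated cells. The groups did not overlap, but untreated replicate 1 stood well above the others. The log2 fold change was -0.72 (SE 0.20) with an adjusted p of 0.00365 in edgeR, and without untreated replicate 1 it was -0.48 with an adjusted p of 0.0385. The gene held only 315 raw counts over the 6 libraries. In RefSeq the noncoding transcript CZ1P-ASNS covers 99.4% of its span, and it was itself listed at 5 to 7 counts per library. GENCODE also places a noncoding transcript there, on the same strand as ASNS. A read that falls on both genes is assigned to neither under the default mode of the counting tool, so the counts of ASNS may cover only part of its mRNA.

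PSAT1 and PHGDH encode enzymes of serine synthesis from a glycolytic intermediate, PHGDH the first step and PSAT1 the next. PSAT1 (chr9:78297125-78330093, plus strand) had 5265, 5571 and 5351 normalized counts in untreated cells and 4091, 4352 and 4186 in VPA-treated cells. The groups were separate, with means of 5395 ± 158 and 4210 ± 132 (SD, n = 3 each) and a log2 fold change of -0.36 (SE 0.041, adjusted p = 1.19e-07 in edgeR). PHGDH (chr1:119711934-119744215, plus strand) had 10834, 11324 and 11582 normalized counts in untreated cells and 10806, 10326 and 10677 in VPA-treated cells. The lowest untreated library and the highest VPA-treated one were nearly level, and the log2 fold change of -0.085 (SE 0.041) did not pass, with an adjusted p of 0.077 in edgeR. PHGDH passed in 5 of 16 alternatives, among them DESeq2 (log2 fold change -0.11, adjusted p = 0.0194) and edgeR with DESeq2's size factors (adjusted p = 0.028) or without untreated replicate 1 (-0.117, adjusted p = 0.0112).

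CHAC1, an enzyme that degrades glutathione, lies at chr15:40953471-40956512 on the plus strand. Its normalized counts were 85.9, 63.9 and 65.1 in untreated cells and 70.0, 64.5 and 48.8 in VPA-treated cells. The groups overlapped, with a log2 fold change of -0.23 (SE 0.16, adjusted p = 0.227 in edgeR). The gene held 397 raw counts in all, and the value was -0.084 without untreated replicate 1 and ran to -0.339 without VPA-treated replicate 1.

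TRIB3, a pseudokinase that binds AKT and restrains ATF4 and DDIT3, lies at chr20:380760-397559 on the plus strand. Its normalized counts were 465, 398 and 434 in untreated cells and 612, 550 and 511 in VPA-treated cells. Every VPA-treated library was above every untreated one, with means of 432 ± 33.6 and 558 ± 51.0 (SD, n = 3 each). The log2 fold change was 0.37 (SE 0.074), with an adjusted p of 1.76e-04 in edgeR, which made TRIB3 the one gene of the 10 that rose.

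SESN2 and DDIT4 encode stress-induced inhibitors of mTORC1, the kinase complex that drives growth when nutrients are present. SESN2, the leucine-sensing sestrin (chr1:28259518-28282491, plus strand), had 1703, 1744 and 1666 normalized counts in untreated cells and 1324, 1325 and 1328 in VPA-treated cells. The groups were separate, and the log2 fold change of -0.36 (SE 0.044) passed with an adjusted p of 3.31e-07 in edgeR. DDIT4, also called REDD1 (chr10:72273924-72276036, plus strand), had 961, 1063 and 998 normalized counts in untreated cells and 1064, 938 and 933 in VPA-treated cells. Both ranges overlapped, and the log2 fold change of -0.042 (SE 0.058) did not pass, with an adjusted p of 0.547 in edgeR.

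**Figure D2:**
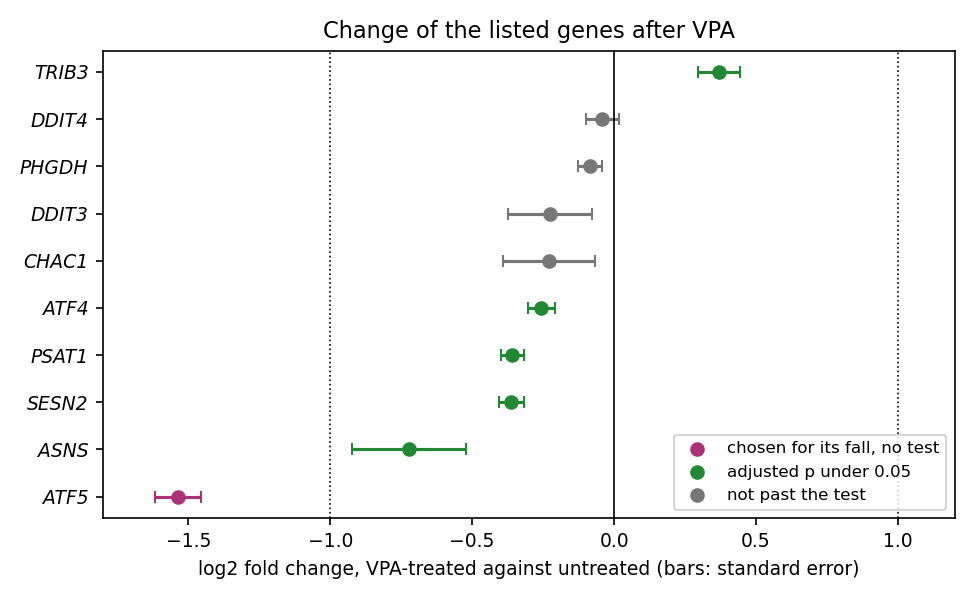
Log2 fold change (VPA-treated minus untreated) of the 10 genes, with bars of 1 approximate standard error, a solid line at no change and dotted lines at the fold threshold of 1 in either direction. ATF5 lies far to the lower side at -1.54, the other genes lie between -0.72 (ASNS) and 0.37 (TRIB3), and DDIT4 lies closest to no change at -0.042. ATF5 was chosen for its fall, so its bar is no measure of support.

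The calls were then read under 10 other settings and with each library left out. ATF4 had log2 fold changes of -0.281 to -0.124 over the settings and passed the test in all of them. SESN2 ran from -0.387 to -0.231, PSAT1 from -0.382 to -0.226, ASNS from -0.749 to -0.593 and TRIB3 from 0.344 to 0.50, and each of these passed throughout. PHGDH and DDIT4 were at 0.0469 and 0.0897 with library totals, so their direction depended on the scaling. Relative to the median of all genes PHGDH was between -0.093 and -0.091 and DDIT4 between -0.05 and -0.048 under all scalings. A scaling moves all genes nearly alike, so these relative values could hardly differ and are no check. DDIT3 and CHAC1 stayed below 0 without passing.

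**Figure D3:**
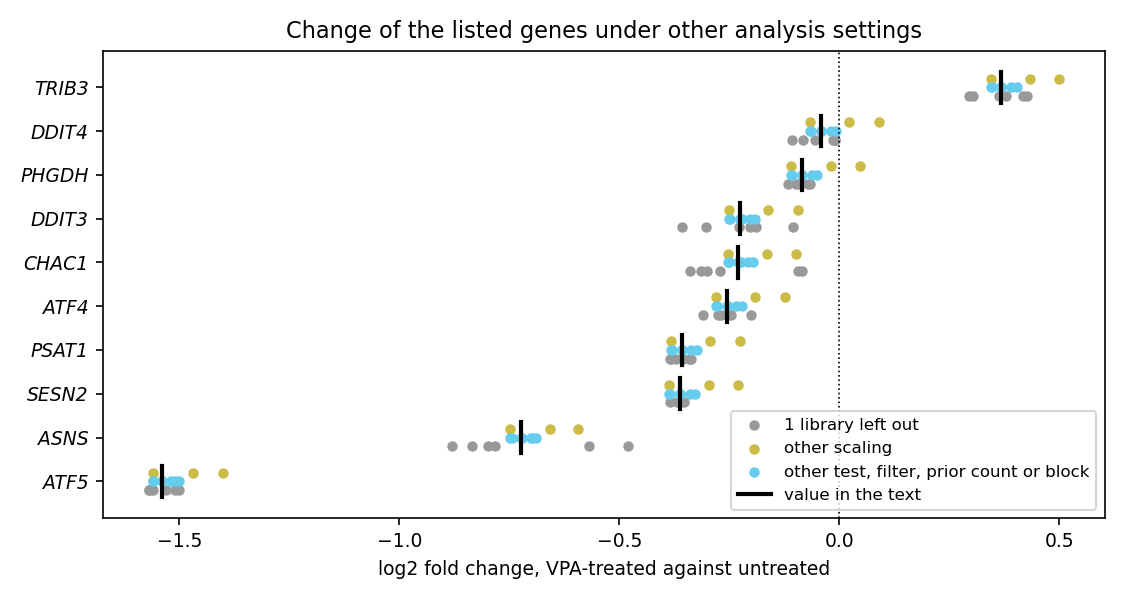
Log2 fold change of the 10 genes under each alternative, with points for left-out libraries, other scalings and other tests, filters, prior counts or the replicate block, and a black mark for the value in the text. The points of ATF5 lie between -1.57 and -1.40, far from those of all others, and those of PHGDH and DDIT4 reach across 0 under other scalings, which move all genes alike.

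The levels of the genes were compared with each other as normalized counts per kilobase of the longest GENCODE transcript. In untreated cells ATF4 was the highest at 9927 ± 771 per kilobase (SD, n = 3), above PHGDH at 3537 ± 119 and PSAT1 at 2446 ± 71.6. DDIT4 at 512 ± 26.2 and SESN2 at 492 ± 11.3 overlapped in the middle of the order. ATF5 at 206 ± 9.92 and TRIB3 at 183 ± 14.2 followed, and the lowest levels were those of DDIT3 at 74.3, CHAC1 at 47.1 and ASNS at 27.7 per kilobase. In VPA-treated cells the order of the first 5 genes was unchanged, but TRIB3 at 237 ± 21.6 per kilobase stood above ATF5 at 70.9 ± 2.90. ATF5 then overlapped DDIT3 at 63.5 ± 11.1 per kilobase. The order depended on the transcript model, since with the merged exons of all transcripts PSAT1 (2446 per kilobase) was above PHGDH (1224) and the untreated levels of ATF5 (143) and TRIB3 (131) overlapped.

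**Figure D4:**
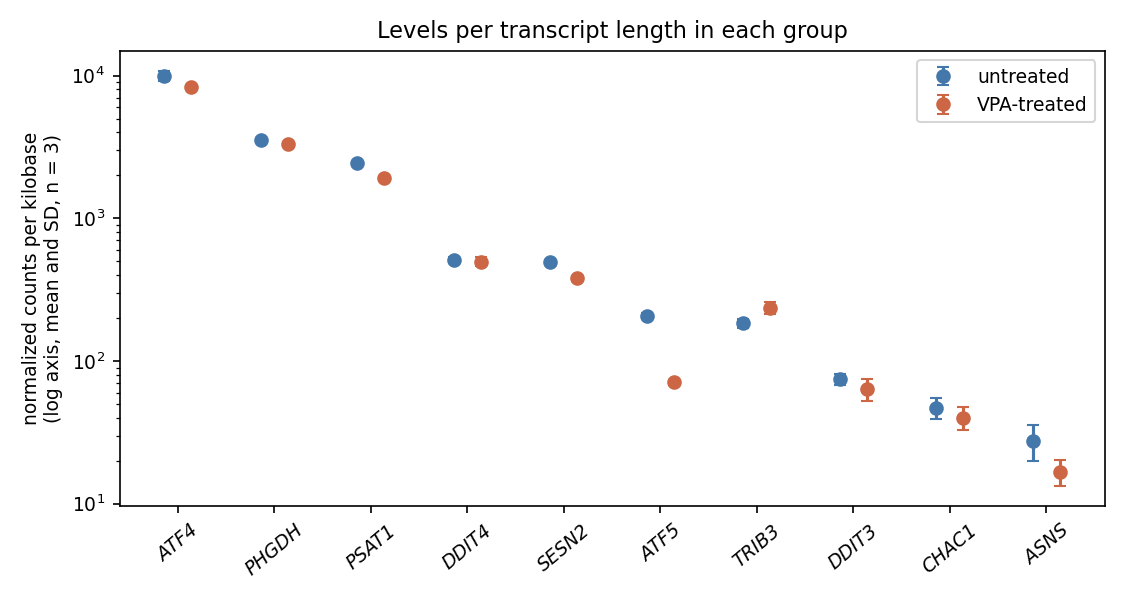
Normalized counts per kilobase of the longest transcript for the 10 genes in untreated and VPA-treated cells, on a log axis, with the mean and SD of 3 libraries. ATF4 lies highest in both groups, and ATF5 moves from 206 to 70.9 per kilobase, below TRIB3 and to the level of DDIT3.

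The genes whose counts followed those of ATF5 and ATF4 most closely were sought by Pearson's r over the 6 libraries, on log2 normalized counts, for genes whose mean count was 100 or more. This is a description, since the 6 points fall into 2 groups and a gene that differs between them beyond its spread gives a high r. For ATF5 the highest values were those of LMNB1 (0.9998), the gene of the nuclear lamina protein lamin B1, ZIC2 (0.9996), a neural transcription factor, ENSA (0.9994), NDUFS3 (0.9993), a subunit of respiratory complex I, and SERPINH1 (0.9988), a collagen chaperone. Their log2 fold changes lay between -0.83 (ZIC2) and -0.41 (ENSA), and 1652 genes had an r over 0.95 with ATF5. For ATF4 they were MAPKAPK5 (0.9979), DDT (0.9978), FBXO3 (0.9967), COX5A (0.9948) and VPS25 (0.9944), with log2 fold changes between -0.23 (DDT) and -0.13 (FBXO3), and 320 genes had an r over 0.95.

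The rest of the pathway was read from 137 further genes, of which 132 were tested. Of these, 32 were higher (24.2%), 60 were lower (45.5%) and 40 did not pass, with a median log2 fold change of -0.11. The shares for all tested genes were those given above, 32.9% and 30.0%. With library totals in place of scaling factors, which moved the median of all genes to 0.14, 48 of the pathway genes were higher (36.4%) and 38 lower (28.8%), beside 43.9% and 15.5% of all tested genes. Of the 132, 4 (NUPR1, FOSL1, CREB3L3 and BATF2) met the minimum of the filter in the libraries of 1 group only, so that only a difference could bring them into the test.

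Upstream of ATF4, the kinases that phosphorylate eIF2 and their activators had 5 of 8 genes lower and 0 higher, with a median log2 fold change of -0.23. The shares over all tested genes were 30.0% lower and 32.9% higher. Under the alternatives 3 to 6 of the 8 were lower and 0 to 2 higher, the 2 with library totals. GCN1, the ribosome-bound activator of the amino acid sensor GCN2, fell most, from 9539 ± 161 to 6819 ± 372 normalized counts (log2 fold change -0.48, SE 0.043), and EIF2AK3, the ER stress kinase PERK, had a log2 fold change of 0.058 that did not pass. In the list that holds the subunits of eIF2, of its exchange factor eIF2B and of its phosphatases together with IMPACT, an inhibitor of GCN2 activation, 6 of the 10 tested genes were lower, all of them subunits, with a median of -0.14. EIF2S2, the beta subunit of eIF2, fell by 0.37 on the log2 scale (SE 0.041), and IMPACT was the 1 gene of this list that was higher, by 0.18 (SE 0.058). EIF2S3, the gamma subunit, is listed at 0 in each library and could not be tested. The other eIF2 subunits had 2397 to 2632 (EIF2S1) and 3235 to 4081 (EIF2S2) raw counts per library. The 0 of EIF2S3 is therefore not read as absence of its mRNA, and its origin was not tested.

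Among 12 bZIP factors and cofactors that pair or act with ATF4, ATF5 or DDIT3, 2 were higher (16.7%), 3 were lower (25%) and 7 did not pass. Their median log2 fold change was 0.034, and the shares over all tested genes were 32.9% higher and 30.0% lower. FOSL1, an AP-1 subunit, had 9, 13 and 13 raw counts in untreated cells and 32, 25 and 27 in VPA-treated cells, with a log2 fold change of 1.13 (SE 0.26). NUPR1, a stress-induced chromatin cofactor, had 19, 17 and 14 against 7, 6 and 11 raw counts and a log2 fold change of -1.17 (SE 0.33). The counts of both genes were low, and FOSL1 met the filter only through the VPA-treated and NUPR1 only through the untreated libraries, so their calls are no evidence for the list. ATF3, a target of ATF4 and itself a repressor, had a log2 fold change of -0.14 and did not pass (adjusted p = 0.0525 in edgeR). The lower genes of this list were 5 with DESeq2 size factors, without a filter or with the replicate block. They were 2 with DESeq2 or a stricter filter, and these counts were not split by gene.

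Among 14 tested relatives named ATF, CREB or BATF, 6 were higher (42.9%) and 5 lower (35.7%), beside 32.9% and 30.0% of all tested genes. CREB3L1, a membrane-bound factor released by cleavage, rose from 49.1 ± 4.78 to 221 ± 13.8 normalized counts (log2 fold change 2.17, SE 0.12). CREB3L3, known from liver, had 0, 1 and 0 raw counts in untreated cells and 18, 16 and 18 in VPA-treated cells. CREB3L3 and BATF2, a further 1 of the 6, met the filter only through the VPA-treated libraries. ATF1 was the most lowered, with a log2 fold change of -0.57 (SE 0.063).

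Amino acid supply genes beside ASNS, PSAT1 and PHGDH were mixed. The shares over all tested genes were 32.9% higher and 30.0% lower. Of 13 synthesis enzymes 3 were higher, 3 were lower and 7 did not pass (median log2 fold change -0.061), from MTHFD2, a mitochondrial folate enzyme, at -0.43 (SE 0.043) to CTH, which makes cysteine, at 0.26 (SE 0.077). Of 12 transporters 6 were lower and 3 higher (median -0.11), or 1 higher with DESeq2 or without untreated replicate 2. They ran from SLC1A5, a glutamine carrier, at -0.41 (SE 0.040) to SLC1A4, a carrier of alanine and serine, at 0.39 (SE 0.066). Of 18 genes for tRNA charging and export, 13 were lower (72.2%) and 1 was higher (5.56%), with a median of -0.24. TARS1, the threonyl-tRNA synthetase, fell from 6746 ± 412 to 5004 ± 231 normalized counts (log2 fold change -0.43, SE 0.047), and AARS1, the alanyl-tRNA synthetase, rose by 0.13 (SE 0.041).

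Of the other stress effectors known downstream of ATF4, 15 of 18 were tested, with 5 higher (33.3%) and 6 lower (40%). Their median log2 fold change was -0.11, and the shares over all tested genes were 32.9% higher and 30.0% lower. VLDLR, a lipoprotein receptor, rose from 129 ± 5.15 to 255 ± 2.27 normalized counts (log2 fold change 0.99, SE 0.089), and STC2, a secreted glycoprotein, fell by 0.46 (SE 0.046). GDF15, a secreted stress cytokine, had only 6, 1 and 7 raw counts in untreated and 5, 15 and 13 in VPA-treated cells and was not tested. FGF21, at 0 to 2 raw counts per library, was not tested either. INHBE, also not tested, had 1, 1 and 2 raw counts in untreated and 16, 8 and 6 in VPA-treated cells. Of 6 paralogues of the effectors, 3 were higher (50%) and 2 lower (33.3%). TRIB2 rose from 73.8 ± 4.70 to 299.7 ± 15.9 normalized counts (log2 fold change 2.02, SE 0.10), while TRIB1 fell from 718 ± 24.0 to 384 ± 20.5 (log2 fold change -0.90, SE 0.062), with TRIB3 between them. DDIT4L, the paralogue of DDIT4, rose from 81.1 ± 7.24 to 203 ± 19.2 normalized counts (log2 fold change 1.32, SE 0.11).

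The mitochondrial chaperones and proteases, the group for which ATF5 is known, had 11 of 13 genes lower (84.6%) and 2 higher (15.4%). Their median log2 fold change was -0.20, and the shares over all tested genes were 30.0% lower and 32.9% higher. HSPD1, the mitochondrial chaperonin, had a log2 fold change of -0.49 (SE 0.052) and its co-chaperonin HSPE1 one of -0.66 (SE 0.11), the latter uncertain because a read-through transcript, HSPE1-MOB4, spans the whole gene. LONP1, the matrix protease, rose by 0.27 (SE 0.038). Of the ER chaperones and genes of the unfolded protein response, 6 of 12 were higher, 0 were lower and 6 did not pass, with a median of 0.11. DNAJB9, an ER co-chaperone, rose by 0.33 (SE 0.099) and HSPA5, the chaperone BiP, by 0.20 (SE 0.048). The difference between these lists was not tested. With library totals, 6 of the mitochondrial genes were lower and 10 of the ER genes higher, 3 of the kinase group and 2 of the other stress effectors were lower, and 6 of the synthesis enzymes were higher. This scaling moved all tested genes to 43.9% higher and 15.5% lower, so such shifts are not particular to these lists. Among the named genes, IMPACT lost its call under 4 of 16 alternatives, AARS1 and DNAJB9 under 2 each and NUPR1 under 1.

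**Figure D5:**
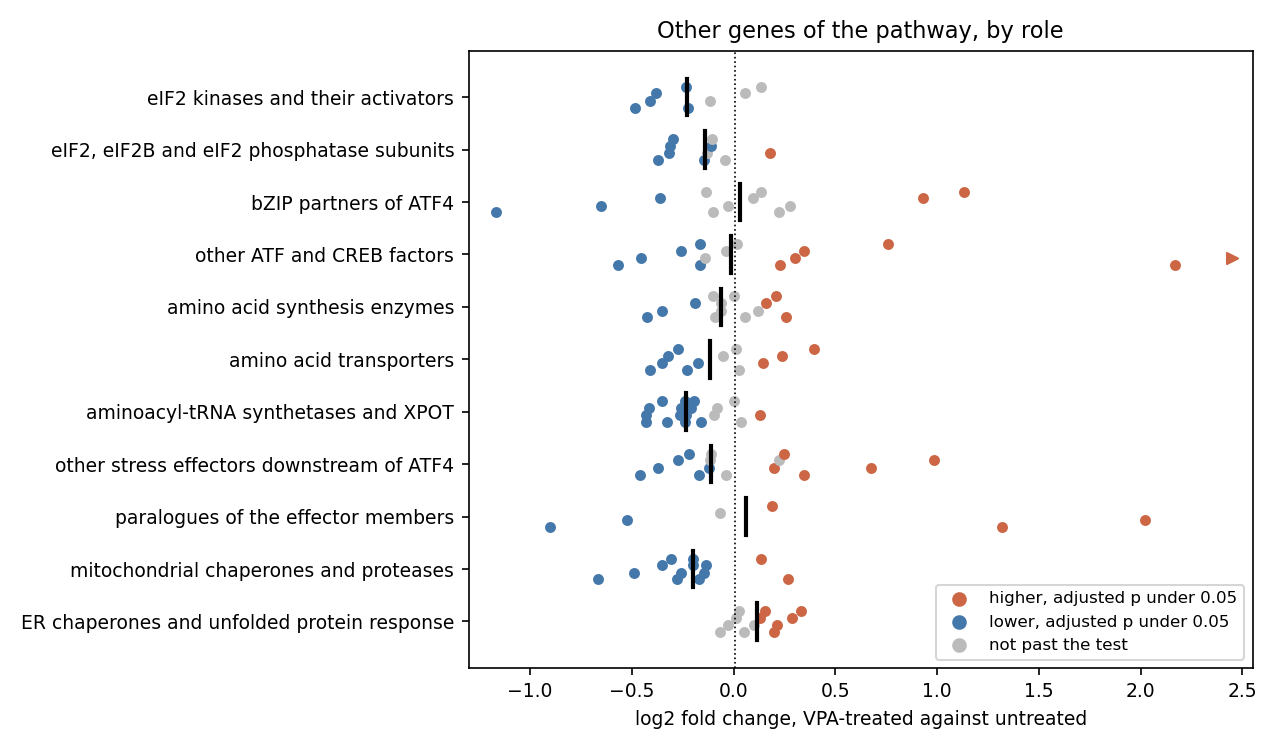
Log2 fold change of each tested gene in the 11 lists of pathway genes, with the median of each list and the median of all tested genes as a dotted line. CREB3L3 lies beyond the axis and is drawn as an arrow. The lists of tRNA charging (median -0.24), eIF2 kinases (-0.23) and mitochondrial chaperones (-0.20) lie lowest, and the ER list (0.11) lies highest.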

How the data were processed

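RNA-seq counts per gene of 6 HEK293T libraries were used. The deposited values are raw counts: per the paper's methods reads were cleaned by the authors (SOAPnuke), aligned to hg38 (STAR) and assigned to genes with htseq-count (STAR 2.7.10b and HTSeq 2.0.1 in the submitters' processing notes). The annotation and strand setting of the counting are not given in the sources used here. Summary lines that name no gene were left out, ambiguous reads being 1.97% to 2.10% of each library. Groups were taken from the sample labels. The test was that of edgeR 4.0.16 in R 4.3.3 (TMM, filterByExpr with a count minimum of 10, robust quasi-likelihood test, Benjamini-Hochberg adjustment over 15298 genes). Normalized counts are TMM-scaled to the mean library. SE is an approximate standard error, the size of the log2 fold change divided by the square root of the quasi-likelihood F. Calls used the study's thresholds, an FDR of 0.05 and, where stated, a log2 fold change of 1.

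The genes and lists were chosen with earlier results of these data known. The text names the 10 genes, in each list every gene past both thresholds and the genes with the largest rise and fall that passed the test, the 5 genes most like ATF5 and ATF4, the neighbours of ATF5 and the markers. EIF2AK3, EIF2S3, ATF3, HSPD1, HSPA5, GDF15, FGF21 and INHBE were named after their values were seen. Coordinates are RefSeq's on GRCh38.p14, and transcript lengths are GENCODE's.

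The alternatives were DESeq2 1.42.0, other scalings, filters and a prior count of 2, glmTreat against a log2 fold change of 0.1, the replicate number as a block, leaving out each library and merged exons as lengths. The edgeR and DESeq2 steps were tested on simulated data.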

Additional observations from a re-analysis of the deposited data

How the results depend on the processing

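Genes other than ATF5 were judged by their direction and their side of the threshold. ATF5, which had no test, was judged by whether its log2 fold change moved by less than the SD of its log2 counts in VPA-treated libraries. Over 160 comparisons of the 10 genes with an alternative (10 settings and 6 left-out libraries each), 150 were unchanged by these rules. PHGDH passed the test in 5 of the others, with DESeq2, with DESeq2 size factors, without a filter, with the replicate block and without untreated replicate 1, at log2 fold changes of -0.117 to -0.085. The scaling moved the median of all tested genes from 0.0058 to -0.019 with DESeq2 size factors, 0.071 with the upper quartile and 0.14 with library totals, and the higher genes from 52.3% of those called to 48.9%, 63.0% and 73.9%. ATF5 was at -1.47 with the upper quartile and -1.40 with library totals. DDIT4 turned to 0.0231 with the upper quartile and 0.0897 with library totals, PHGDH to 0.0469 and FBXO3 to 0.0053 with library totals, and VRK3 to 0.00156 and 0.068 with these scalings in turn. Relative to the median of all genes under each scaling, ATF4 was between -0.264 and -0.262, ATF5 between -1.546 and -1.54, TRIB3 between 0.36 and 0.363, PHGDH between -0.093 and -0.091 and DDIT4 between -0.05 and -0.048. Such near constancy follows from the arithmetic of scaling, which moves all genes nearly alike, and is no sign of stability. TBC1D17 turned to -0.0136 with DESeq2, -0.0133 with its size factors and -0.0103 without a filter. Over left-out libraries TBC1D17 ran from -0.0584 to 0.0975, IL4I1 from -0.155 to 0.331, ATF5 from -1.57 to -1.50 and ATF4 from -0.31 to -0.20, and the highest adjusted p of ATF4 was 0.00158. Among the lists, leaving out untreated replicate 1 moved the lower bZIP partners from 3 to 5, the higher tRNA charging genes from 1 to 0 and the lower ER genes from 0 to 1, untreated replicate 2 the higher transporters from 3 to 1 and the higher stress effectors from 5 to 3, and VPA-treated replicate 1 the lower synthesis enzymes from 3 to 5, and leaving out any library but VPA-treated replicate 2 moved the higher mitochondrial genes from 2 to 1. The counts of lower genes among the other pathway genes moved to 38 with library totals. Of 600 comparisons of 38 other named genes, 560 kept direction and call, and FBXO3 lost its call or turned in 11. EIF2AK3, ATF3, HSPD1, HSPA5, BATF2, MARS1 and the markers are not among the 38 and were not read under the alternatives.

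Whether the replicate numbers pair the libraries was not settled, and the main test used no pairing. Deviations from the group means correlated weakly, at 0.12, 0.016 and 0.065 between libraries of the same number and at -0.092 to 0.031 between the others. Untreated replicates 1 and 3 correlated best with their own number, and untreated replicate 2 with another. The replicate block raised the calls over all tested genes from 5037 to 5357 higher and from 4591 to 5100 lower. With the replicate block 5 of the 9 genes other than ATF5 were lower and 1 was higher, PHGDH being added at -0.085 with an adjusted p of 0.00916, and 35 of the other pathway genes were higher and 71 lower.

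ASNS, CHAC1 and DDIT3 held 315, 397 and 440 counts over all libraries, which limits what can be seen of them. CREB3L3, FOSL1, NUPR1 and IL4I1 gave no value under the stricter filters.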

Other observations

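The tested protein-coding genes nearest to ATF5, on chromosome 19, had log2 fold changes smaller in size than its -1.54. ATF5 was chosen for its fall, so this contrast follows largely from the choice and says nothing about the region. AKT1S1, which encodes PRAS40, an inhibitory partner of mTORC1, lies 50550 bases before ATF5 and was counted at 2403 ± 181 without VPA and 1552 ± 21.1 with it, after normalization (SD, n = 3 each). Its log2 fold change of -0.63 (SE 0.050) passed edgeR's test with an adjusted p of 4.57e-10. TBC1D17, which lies between them, had a log2 fold change of 0.011 (adjusted p = 0.912 in edgeR). NUP62, a nuclear pore gene that overlaps the start of ATF5, fell from 3337 ± 142 to 2996 ± 121 normalized counts, a log2 fold change of -0.16 (adjusted p = 0.00396 in edgeR), and it lies wholly within IL4I1, a secreted amino acid oxidase gene counted at 6 to 12 reads per library. NUP62 lost its call under 3 alternatives. On the other side SIGLEC11 and SIGLEC16 are listed at 0, VRK3 had a log2 fold change of -0.064 (adjusted p = 0.307 in edgeR), and ZNF473, 92070 bases after ATF5, fell by 0.32 on the log2 scale (SE 0.059, adjusted p = 6.43e-05 in edgeR). The differences between ATF5 and these genes were not tested.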
